A study of Homo sapiens with 18 samples.

Results

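The genes described here encode cytosolic and mitochondrial heat shock proteins and the transcription factor that controls them. Of the 10 genes named, HSPA8, HSP90AA1, HSP90AB1, HSPH1, HSPA4, DNAJA1, DNAJB1, HSPD1, HSPE1 and HSF1, a gene was taken where the array carried a probe set annotated with its symbol and no other, and the brightest such probe set stood for it. This found 9 of the 10, among 10717 genes tested in all. HSPA8, the constitutive cytosolic HSP70, was not analysed here because its 4 probe sets each carry several symbols. The cells were HK-2, which derive from the human kidney's proximal tubule and were immortalized, so all groups share 1 line and 1 genetic background. Cultures were exposed to CsA, the usual abbreviation of cyclosporin A, or to its vehicle (control) for 12, 24 or 48 h. The 6 groups held 3 biological replicates apiece, and the sources used here give no dose. The authors deposited GCRMA values, a background-corrected and normalized intensity for each probe set on the log2 scale, from 18 Affymetrix arrays.

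Heat shock proteins are chaperones that hold, fold or refold other proteins. In the cytosol, J-proteins bring clients to HSP70, exchange factors reset HSP70, and HSP90 takes over a subset of clients such as kinases and steroid receptors. In mitochondria, HSPD1 (HSP60) forms a folding chamber that HSPE1 (HSP10) closes as a lid. HSF1 is held inactive in unstressed cells, largely by the chaperones themselves, and on heat or proteotoxic stress it binds heat shock elements, repeats of the unit GAA in alternating orientation, in the promoters of chaperone genes. CsA binds cyclophilins, among them PPID, a cochaperone of HSP90.

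The arrays were alike in overall signal, with medians between 2.858 and 2.924, and the share of probe sets at 4 or above was 38.24% to 39.13%. Replicate 3 stood apart. On its 6 arrays, 867 of the tested genes (8.09%) lay outside the range of the other 12 arrays, against 9 genes for replicate 1 and 5 genes for replicate 2. The epithelial cadherin CDH1 lay between 3.05 and 5.26 in replicate 3, against 7.33 to 9.17 in replicate 1 and 7.81 to 9.23 in replicate 2. None of the 9 heat shock genes was among those 867. Of the proximal tubule markers, 2 of 13 reached the level filter (CDH6 and PAX8), while the transporters and receptors that define the segment, such as LRP2, CUBN and AQP1, did not. All 6 epithelial markers reached it, as did 4 of 16 markers of other cell types (PODXL, COL1A1, COL3A1 and DCN).

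The promoter windows of the genes differ in how they carry the HSF1 element. Windows of genes that are set beside each other below are printed. Whether the element bears on how a gene moved was not tested. RefSeq windows of 300 bases (GRCh38.p14, 250 bases before to 50 after a start) were searched for GAANNTTC and TTCNNGAA, the smallest runs of 2 alternating units, each of which reads the same on both strands, and for either of them followed by a further alternating unit after NN, on both strands, a run of 3 units that contains overlapping copies of the shorter ones. Of 35116 windows, 13.5% held at least 2 units and 0.49% held 3. Among the 10 named genes 9 had windows, 15 in all. At least 2 units stood in 7 of the 15 windows. By gene, they stood in a window of 6 of these genes, and 3 units in a window of 5. HSPA8 was one of them. A gene with several windows has several chances, so only the count of windows compares with the shares above. No match stood in the first windows of HSP90AA1, DNAJB1 and HSPD1 or in the first and second of HSP90AB1. A match describes letters, not a bound site. Capitals mark the matches in HSP90AA1 (second window, chr14:102086995-102087294, minus strand), HSP90AB1 (the third window, chr6:44247693-44247992, plus strand), DNAJA1 (chr9:33025023-33025322, plus strand), DNAJB1 (second window, chr19:14518348-14518647, minus strand) and HSPD1 (second window, chr2:197499791-197500090, minus strand).
HSP90AA1: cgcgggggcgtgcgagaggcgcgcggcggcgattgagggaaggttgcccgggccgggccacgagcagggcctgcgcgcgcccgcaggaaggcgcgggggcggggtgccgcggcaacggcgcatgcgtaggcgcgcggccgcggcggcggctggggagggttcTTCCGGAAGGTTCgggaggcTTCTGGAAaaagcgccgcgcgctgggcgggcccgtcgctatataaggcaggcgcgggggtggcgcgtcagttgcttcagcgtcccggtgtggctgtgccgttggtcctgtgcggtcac
HSP90AB1: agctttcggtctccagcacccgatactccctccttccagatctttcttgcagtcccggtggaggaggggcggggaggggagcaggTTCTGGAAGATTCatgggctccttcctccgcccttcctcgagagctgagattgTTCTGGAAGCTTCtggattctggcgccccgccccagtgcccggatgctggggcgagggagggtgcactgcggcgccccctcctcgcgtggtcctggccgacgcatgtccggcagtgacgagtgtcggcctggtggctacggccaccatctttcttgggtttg
DNAJA1: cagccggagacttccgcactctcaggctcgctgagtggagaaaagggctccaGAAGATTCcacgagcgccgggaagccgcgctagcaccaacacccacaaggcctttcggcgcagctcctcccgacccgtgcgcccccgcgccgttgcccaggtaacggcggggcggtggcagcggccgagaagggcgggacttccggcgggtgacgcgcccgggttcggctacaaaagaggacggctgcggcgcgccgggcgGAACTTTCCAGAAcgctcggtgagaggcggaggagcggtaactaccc
DNAJB1: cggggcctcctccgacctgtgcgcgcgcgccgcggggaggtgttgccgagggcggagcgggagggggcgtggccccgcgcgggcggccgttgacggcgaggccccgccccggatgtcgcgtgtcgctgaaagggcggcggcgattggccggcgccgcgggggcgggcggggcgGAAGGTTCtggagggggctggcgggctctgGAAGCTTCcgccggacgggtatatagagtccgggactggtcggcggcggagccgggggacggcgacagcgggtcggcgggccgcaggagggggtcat
HSPD1: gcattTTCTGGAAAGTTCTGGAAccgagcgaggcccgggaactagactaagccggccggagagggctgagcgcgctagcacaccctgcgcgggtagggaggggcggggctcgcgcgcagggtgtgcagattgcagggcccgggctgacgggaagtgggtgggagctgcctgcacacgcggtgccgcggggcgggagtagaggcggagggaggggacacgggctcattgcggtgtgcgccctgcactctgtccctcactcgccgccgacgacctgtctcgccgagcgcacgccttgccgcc

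The HSPE1 window (chr2:197500129-197500428, plus strand) held no such run of letters, nor did those of HSPH1 and HSPA4. The matches of HSPD1 stand at the upstream end of its second window, which reaches to chr2:197500090, shortly before the HSPE1 window begins. They thus lie near HSPE1 too, outside the bases searched for it. HSPE1 and HSPD1 lie head to head, and their first start sites are 105 bases apart. In the HSPE1 sequence the capitals therefore mark something else, the 204 bases that it shares with the first window of HSPD1.
HSPE1: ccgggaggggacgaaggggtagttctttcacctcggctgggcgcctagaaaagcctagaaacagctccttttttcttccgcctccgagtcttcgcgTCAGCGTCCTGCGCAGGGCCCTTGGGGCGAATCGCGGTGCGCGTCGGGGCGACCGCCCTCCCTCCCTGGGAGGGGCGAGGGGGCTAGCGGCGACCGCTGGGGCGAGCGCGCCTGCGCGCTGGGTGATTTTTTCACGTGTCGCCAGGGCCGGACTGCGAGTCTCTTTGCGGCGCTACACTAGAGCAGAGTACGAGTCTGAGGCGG

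The clearest pattern in these genes was a fall with time in culture, seen with and without CsA. Between 12 and 48 h, HSP90AA1, HSPH1 and HSPE1 fell in both CsA-treated and control cells, to between 0.422 and 0.564 of their 12 h level. DNAJB1, HSPA4, HSF1 and HSPD1, the partner of HSPE1, did not pass the test in either. HSPA4 passed in both with the replicate number as a block. For CsA against control none of the 9 genes passed the test at any time, and at 12 and 24 h none of all 10717 tested genes did. At 24 h all 9 differences were negative, as were 52.0% of those of all tested genes.

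The comparison of 48 h with 12 h was added after the values were seen. In limma's fit across all tested genes, 3 of the 9 genes were called lower in CsA-treated cells (Benjamini-Hochberg adjusted p under 0.05), where the share of all tested genes called lower was 16.2%. In control cells 5 of the 9 were called lower, where the share was 9.37%. The median difference of the 9 genes was -0.30 in CsA-treated cells and -0.60 in control cells, against -0.01 over all genes in each. With the replicate number as a block, 4 were called in CsA-treated cells and 6 in control cells, where the shares called lower were 24.4% and 18.7%. HSPA4 was the gene added in both. Between 24 and 12 h 0 of the 9 were called in either treatment, as were 0.0% of all tested genes in each direction. The difference was negative in 9 of 9 in CsA-treated cells (median -0.40) and in 7 of 9 in control cells (median -0.22), against 52.1% of all tested genes in each, and 3 (4.53% of all genes) and 0 (1.22%) had an unadjusted p under 0.05.

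**Figure D1:**
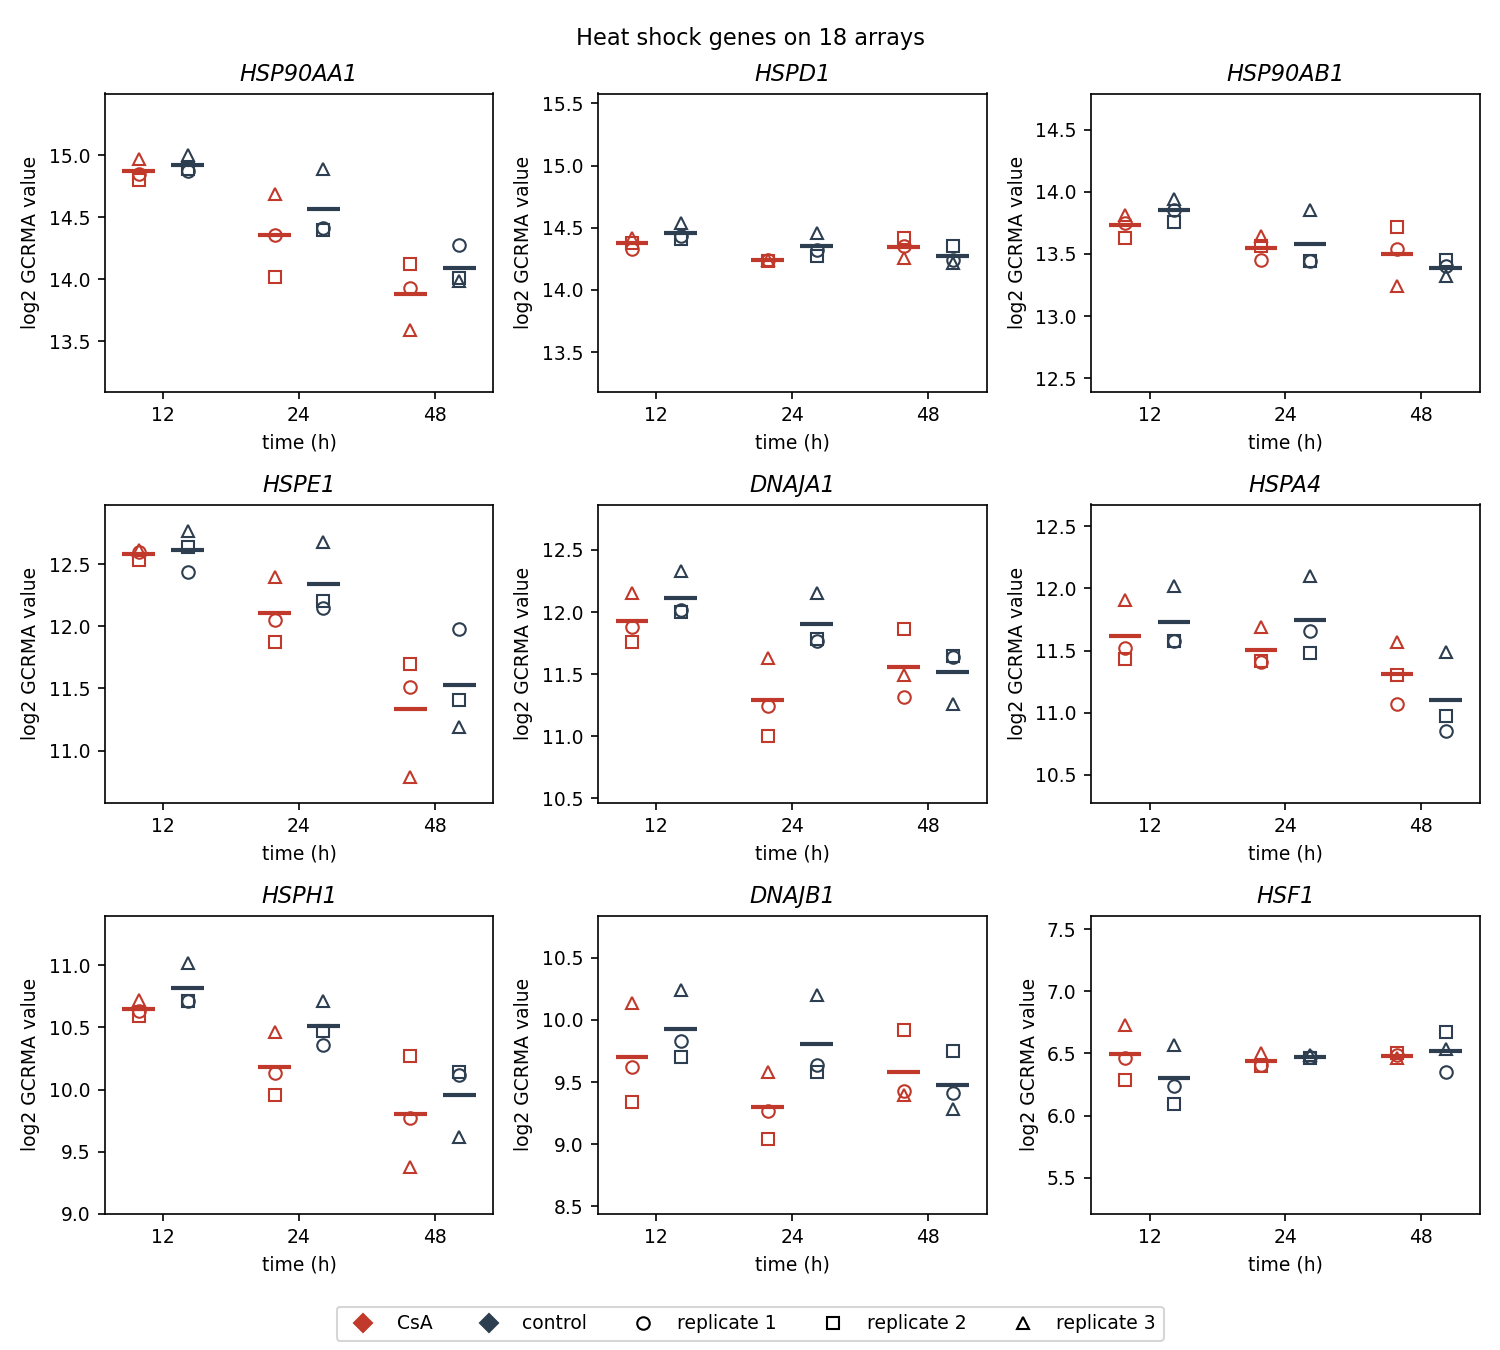
Log2 GCRMA value (vertical axes, all spanning the same range) of 9 heat shock genes on each of 18 arrays, by time in hours, with CsA left of control. Symbols are replicates and bars are means of 3 arrays. HSP90AA1, HSPE1 and HSPH1 step down with time in both treatments, while HSPD1 stays within 14.22 to 14.54.

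HSP90AA1, the stress-inducible cytosolic HSP90, lay at 14.85, 14.80 and 14.97 on the CsA arrays of 12 h and at 14.87, 14.89 and 15.00 on the control arrays of 12 h (replicates 1, 2 and 3, log2 level). At 24 h the CsA arrays gave 14.36, 14.02 and 14.69 and the control arrays 14.41, 14.40 and 14.89. At 48 h the CsA arrays gave 13.93, 14.12 and 13.59 and the control arrays 14.28, 14.01 and 13.99. Within each treatment the arrays of 48 h all lay below those of 12 h, and at each time the CsA and control arrays overlapped. Between 48 h and 12 h the log2 difference was -0.99 ± 0.18 in CsA-treated cells (limma, standard error, adjusted p = 0.00107) and -0.83 ± 0.18 in control cells (adjusted p = 0.00881). Without replicate 3 these were -0.80 (adjusted p = 0.00388) and -0.74 (adjusted p = 0.00992).

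HSP90AB1 is the constitutive cytosolic HSP90, close in sequence and function to HSP90AA1. Its log2 level averaged 13.73, 13.55 and 13.50 in CsA-treated cells and 13.85, 13.57 and 13.39 in control cells at 12, 24 and 48 h, with SDs between 0.07 and 0.24 (n = 3 each). The difference between 48 and 12 h was -0.46 ± 0.14 in control cells (limma adjusted p = 0.0318) and -0.23 ± 0.14 in CsA-treated cells (adjusted p = 0.22). The fall in control cells was no longer called when the arrays were quantile-normalized again (adjusted p = 0.104) or without any one of replicates 1 and 3 of control at 12 h or the 3 control arrays of 48 h (-0.49 to -0.41, adjusted p between 0.0566 and 0.104). The CsA effect at 48 h minus that at 12 h was 0.23 ± 0.19, with an adjusted p of 1.0, so the 2 treatments were not shown to differ in this.

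The change from 24 to 48 h was unequal between the 2 HSP90 genes. Averaged over both treatments it was -0.47 for HSP90AA1 and -0.12 for HSP90AB1, a difference of -0.36 in log2 change. An exact two-sided permutation test within treatments gave p = 0.005, the smallest its 400 relabelings allow, and 0.01 after adjustment over the 8 tests of this kind, all chosen after the values were seen. That test does not use the replicate numbers. Exact sign changes over the 6 same-numbered pairs, added later, gave p = 0.0312, the smallest that 64 sign changes allow, and 0.0417 after adjustment. They gave the same for the 3 other gene pairs compared over this interval. Sign changes, here and below, take the pairs as independent, although the same replicate numbers recur in them. CsA and control arrays of one number and time deviated together (correlations between 0.546 and 0.942). The p values of sign changes can therefore be too small. Without replicate 3 the difference between the 2 HSP90 genes was -0.27. The same exact permutation test of CsA against control over the 3 times gave -0.15 with p = 0.0755 (adjusted 0.0863).

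HSPE1, the HSP10 lid of the mitochondrial folding chamber, was the most variable of the set. HSPE1 had only 1 probe set with its symbol alone, so unlike the other genes tested it had no further probe set as a check. It lay at 12.60, 12.53 and 12.61 in CsA-treated cells and at 12.44, 12.64 and 12.77 in control cells at 12 h. At 24 h it lay at 12.05, 11.87 and 12.40 in CsA-treated cells and at 12.15, 12.20 and 12.68 in control cells. At 48 h it lay at 11.51, 11.70 and 10.79 in CsA-treated cells and at 11.98, 11.41 and 11.19 in control cells. Every array of 48 h was below every array of 24 h and 12 h in its own treatment, and replicate 3 was lowest at 48 h in both treatments after being highest at 24 h. From 12 to 48 h HSPE1 fell by 1.24 ± 0.24 in CsA-treated cells (limma adjusted p = 0.00162) and by 1.09 ± 0.24 in control cells (adjusted p = 0.00914). Leaving out any array, or replicate 3 throughout, kept both calls, with adjusted p between 0.000983 and 0.00716 in CsA-treated cells and between 0.00372 and 0.0391 in control cells.

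HSPE1 was also the 1 gene of the set called between 48 and 24 h. The log2 difference was -0.78 ± 0.24 in CsA-treated cells (limma adjusted p = 0.0312) and -0.82 ± 0.24 in control cells (adjusted p = 0.0387). Of all tested genes, 12.3% were called lower in CsA-treated cells and 7.16% in control cells. These calls rested on replicate 3, in which the differences were -1.61 and -1.50, against -0.55 and -0.17 in replicate 1 and -0.18 and -0.79 in replicate 2 (CsA-treated, then control). Without replicate 3 the differences were -0.36 (adjusted p = 0.17) and -0.48 (adjusted p = 0.0994). Both calls were also lost without the filter on level, at adjusted p of 0.0613 in CsA-treated cells and 0.0734 in control cells. Among single arrays, the CsA call was lost without replicate 1 or 3 of CsA at 24 h or replicate 3 of CsA at 48 h, where the difference lay between -0.81 and -0.51. The control call was lost without any one of 8 arrays, where the difference lay between -0.92 and -0.65. These were replicate 1 of CsA at 12 h and at 24 h, replicate 2 of control at 12 h, all 3 controls of 24 h, and replicates 2 and 3 of control at 48 h.

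HSPD1, the HSP60 chamber itself, spanned 0.32 on the log2 scale over all 18 arrays. It lay at 14.33, 14.38 and 14.42 in CsA-treated cells and at 14.43, 14.41 and 14.54 in control cells at 12 h. At 24 h it lay at 14.24, 14.23 and 14.24 in CsA-treated cells, all below 14.32, 14.27 and 14.46 in control cells. At 48 h it lay at 14.35, 14.42 and 14.26 in CsA-treated cells, against 14.24, 14.35 and 14.22 in control cells, and the groups overlapped. Between 48 and 12 h the difference was -0.03 ± 0.09 in CsA-treated cells and -0.19 ± 0.09 in control cells (limma adjusted p = 0.836 and 0.137).

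The 2 mitochondrial partners, whose genes share the promoter region printed above, changed unequally. Averaged over treatments, HSPE1 differed by -0.80 and HSPD1 by 0.01 between 48 and 24 h, a difference of -0.81 in log2 change (exact permutation test, p = 0.005, adjusted over 8 tests 0.01, 400 relabelings). Without replicate 3 it was -0.49. HSPA9, the mitochondrial HSP70 that pulls proteins in and hands them to HSPD1, rose over the same interval, by 1.13 ± 0.17 in CsA-treated cells (limma adjusted p = 0.000514) and by 0.56 ± 0.17 in control cells (adjusted p = 0.045). The change of HSPD1 minus that of HSPA9 was -0.83 (exact permutation p = 0.005, adjusted 0.01), and -0.65 without replicate 3. For CsA minus control over the 3 times HSPE1 minus HSPD1 was -0.12 (exact permutation p = 0.401, adjusted 0.401). HSPD1 minus HSPA9 was -0.30 (exact permutation p = 0.011, adjusted 0.0176), with 8 of 9 pairs negative. Exact sign changes, which take the 9 pairs as independent, gave p = 0.0117 for the latter (adjusted 0.0417).

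**Figure D2:**
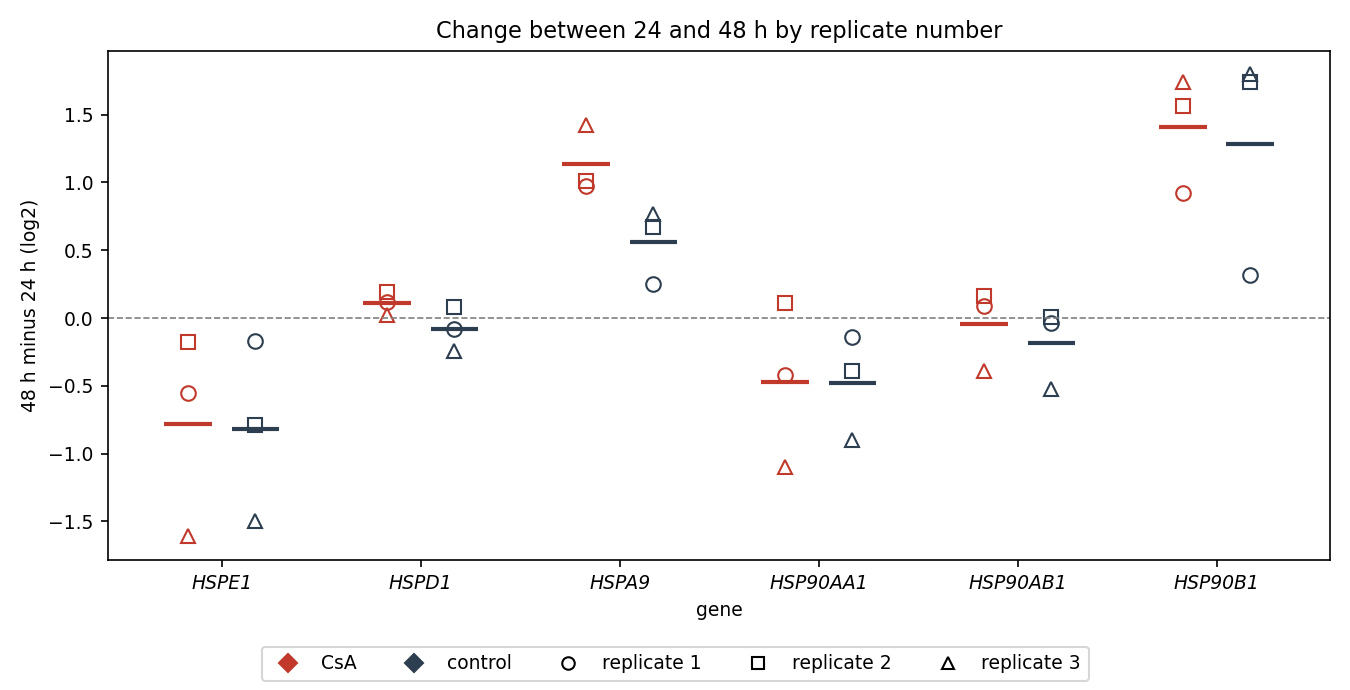
Change in log2 value between 24 and 48 h (vertical axis) for each replicate number, for mitochondrial HSPE1, HSPD1 and HSPA9 and for the HSP90 genes of the cytosol (HSP90AA1, HSP90AB1) and the endoplasmic reticulum (HSP90B1), with CsA left of control. Bars are means of 3. HSPE1 is below 0 in all 6 comparisons and HSPA9 and HSP90B1 above 0 in all 6, and replicate 3 has the lowest values of HSPE1, at -1.61 and -1.50.

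HSPH1 (HSP105), a cytosolic relative of HSP70 that acts as its exchange factor, lay at 10.63, 10.59 and 10.72 in CsA-treated cells and at 10.71, 10.71 and 11.02 in control cells at 12 h. At 24 h it lay at 10.13, 9.96 and 10.46 in CsA-treated cells, against 10.36, 10.47 and 10.71 in control cells. At 48 h it lay at 9.77, 10.27 and 9.38 in CsA-treated cells, against 10.12, 10.14 and 9.62 in control cells. The arrays of 48 h were all below those of 12 h in both treatments. The log2 difference between these times was -0.84 ± 0.21 in CsA-treated cells (limma adjusted p = 0.00722) and -0.85 ± 0.21 in control cells (adjusted p = 0.0145). The control call was lost without replicate 3 of control at 12 h (-0.75, adjusted p = 0.0583) or at 48 h (-0.68, adjusted p = 0.0547). Without replicate 3 in every group the differences were -0.59 in CsA-treated cells (adjusted p = 0.0185) and -0.58 in control cells (adjusted p = 0.0306).

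HSPA4 (APG-2), a second exchange factor of the same family, followed the replicate number more than any other gene of the set. The number accounted for 42.8% of its sum of squares over 18 arrays, against 0.233% to 22.4% for the other 8 genes. Replicate 3 was highest in each group, at 11.91, 11.69 and 11.57 in CsA-treated cells and 12.02, 12.10 and 11.49 in control cells at 12, 24 and 48 h. The difference between 48 and 24 h in control cells was -0.81, -0.51 and -0.60 in replicates 1, 2 and 3. Its limma adjusted p was 0.0598, and 0.000402 with the replicate number as a block, with which HSPA4 fell by 0.64. In CsA-treated cells the same difference was -0.19 (adjusted p = 0.57, with the block 0.127). The block added HSPA4 to the control genes called lower and HSP90AA1 to those in CsA-treated cells (adjusted p = 0.0493, against 0.0733), making 2 of 9 in each, where 16.0% and 20.5% of all tested genes were called lower. For HSPA4, CsA minus control was negative in all 3 pairs at 24 h and positive in all 3 at 48 h. The test of that difference between times gave 0.45 with an adjusted p of 0.955, and 0.251 with the block.

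DNAJA1 (HSP40 class A), a J-protein that delivers clients to cytosolic HSP70, had the largest CsA difference of the set. At 12 h it lay at 11.88, 11.76 and 12.15 in CsA-treated cells, against 12.02, 12.00 and 12.33 in control cells. At 24 h it lay at 11.24, 11.00 and 11.63 in CsA-treated cells, all below 11.77, 11.78 and 12.15 in control cells. At 48 h it lay at 11.32, 11.86 and 11.49 in CsA-treated cells, against 11.64, 11.65 and 11.26 in control cells, which overlapped. The log2 difference at 24 h was -0.61 ± 0.19, a level 0.656 times that of control cells, with a 95% confidence interval from -1.02 to -0.19. Its unadjusted limma p was 0.00728 and its adjusted p 0.999, and with the replicate block the adjusted p was 0.311. At 12 and 48 h the differences were -0.19 ± 0.19 and 0.04 ± 0.19.

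The mean time course of DNAJA1 had another shape in each treatment, but the treatments were not shown to differ in it. Between 24 and 12 h it differed by -0.64 ± 0.19 in CsA-treated cells and by -0.22 ± 0.19 in control cells, and between 48 and 24 h by 0.27 ± 0.19 and -0.38 ± 0.19. The CsA effect at 48 h minus that at 24 h was 0.65 ± 0.27 (limma unadjusted p = 0.0327, adjusted p = 0.867). DNAJA1 fell between 12 and 48 h in control cells (-0.60 ± 0.19, adjusted p = 0.0461), a call that 16 of 27 alternatives lost, with differences between -0.67 and -0.37 there.

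DNAJB1 (HSP40 class B), the heat-inducible J-protein, lay at 9.62, 9.34 and 10.14 in CsA-treated cells and at 9.83, 9.70 and 10.24 in control cells at 12 h. At 24 h it lay at 9.27, 9.04 and 9.58 in CsA-treated cells, against 9.64, 9.58 and 10.20 in control cells, with no CsA array above the lowest control array. At 48 h it lay at 9.43, 9.92 and 9.40 in CsA-treated cells, against 9.41, 9.75 and 9.28 in control cells. The CsA differences were -0.22 ± 0.24, -0.51 ± 0.24 and 0.10 ± 0.24 at 12, 24 and 48 h, and none passed the test (limma adjusted p between 0.917 and 1.0). All 3 replicate pairs were negative at 24 h and all 3 positive at 48 h, at 0.02, 0.17 and 0.11.

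HSF1, the transcription factor of the heat shock response, was the dimmest of the set, with group means between 6.30 and 6.52. At 12 h it was higher in CsA-treated cells in every pair, by 0.22, 0.20 and 0.16, with a mean of 0.20 ± 0.13 (limma adjusted p = 1.0). At 24 and 48 h the differences were -0.04 ± 0.13 and -0.03 ± 0.13. The other HSF1 probe set, dimmer at a mean of 4.76, differed from this. In a fit of probe sets it gave 0.02 ± 0.33 at 12 h, -0.01 ± 0.33 at 24 h and 0.67 ± 0.33 at 48 h. These arrays measure HSF1 RNA, and the activity of HSF1 is set largely on the protein.

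Taking the set as a whole, limma called 0 of the 9 genes for CsA against control at 12, 24 or 48 h, or for the mean of the 3 times, with or without the replicate block. At 12 and 24 h 0.0% of all tested genes were called in either direction, and at 48 h 0.224% were called lower and 0.215% higher. For the mean of the 3 times 0.00933% were called lower and 0.0746% higher. With the block the shares were 0.0% at 12 h, 0.0% lower and 0.00933% higher at 24 h, 5.96% lower and 4.8% higher at 48 h, and 2.5% lower and 2.11% higher for the mean of the times. Counting unadjusted p values under 0.05, the set had 0 at 12 h (0.914% of all tested genes), 1 at 24 h (3.79%, DNAJA1) and 0 at 48 h (16.0%). With the block these counts were 0 at 12 h (2.42%), 3 at 24 h (9.41%, HSPA4, DNAJA1 and DNAJB1) and 1 at 48 h (28.1%, HSPA4). With the block on the arrays of each time alone they were 3 at 12 h (13.4%, DNAJA1, DNAJB1 and HSF1), 4 at 24 h (19.5%, HSPH1, DNAJA1, DNAJB1 and HSPE1) and 0 at 48 h (29.7%). The 95% confidence intervals of the CsA differences reached from -1.03 (DNAJB1, 24 h) to 0.67 (HSPA4, 48 h).

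The signs ran one way at the 2 early times. CsA minus control was negative for 8 of 9 genes at 12 h, where 53.3% of all tested genes were negative, for 9 of 9 at 24 h, where 52.0% were, and for 4 of 9 at 48 h, where 49.8% were. The median differences were -0.11, -0.23 and 0.04, against -0.01, -0.01 and 0.00 over all genes. Lower in all 3 replicate pairs were 7 of 9 at 12 h (20.6% of all tested genes), 7 of 9 at 24 h (23.3%) and 0 of 9 at 48 h (26.2%). Higher in all 3 pairs were 1 of 9 at 12 h (HSF1, 18.9% of all tested genes), 0 at 24 h (22.0%) and 3 at 48 h (HSPA4, DNAJB1 and HSPD1, 25.7%). At 24 h the 3 CsA arrays of DNAJA1, DNAJB1 and HSPD1 all lay below the 3 control arrays, which held for 5.12% of all tested genes. The tests of the CsA effect between times, which compare differences that share arrays, called 0 of the 9 genes. For 24 h minus 12 h the effects were more negative in 8 of 9 (49.4% of all tested genes), with 0.0% of all genes called in either direction and 0.812% at an unadjusted p under 0.05 (0 of 9). For 48 h minus 24 h the difference was negative in 0 of 9 (50.5% of all tested genes), with 0.0% called lower, 0.0373% called higher and 5.68% at an unadjusted p under 0.05 (1 of 9, DNAJA1), which with the block were 13.4% and 2 of 9 (HSPA4 and DNAJA1). Other probe sets of these genes, 16 in all and none of them for HSPE1, had the sign of the one used in 14 cases at 12 h, 15 at 24 h and 13 at 48 h.

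**Figure D3:**
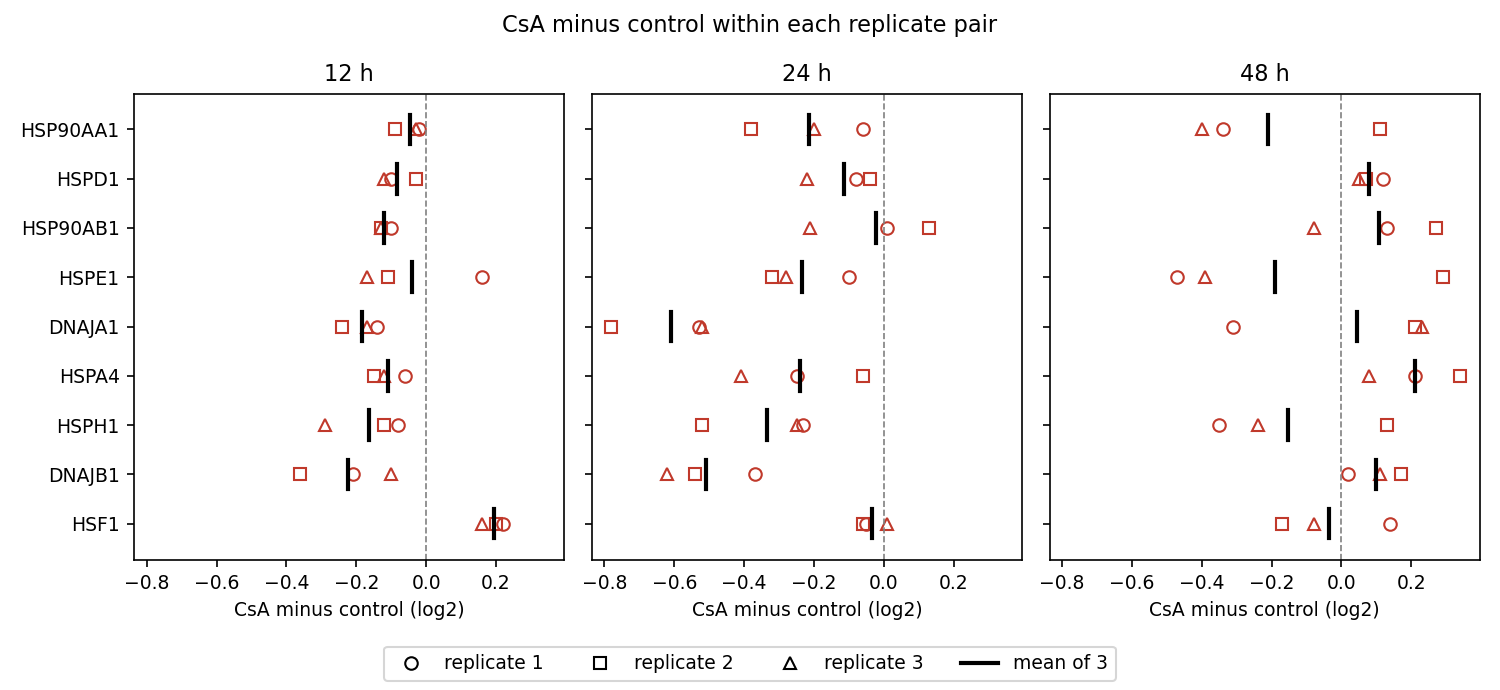
CsA minus control on the log2 scale (horizontal axes) within each of 3 replicate pairs, for 9 heat shock genes at 12, 24 and 48 h. Symbols are replicate pairs and black bars their means. At 24 h all 9 means are below 0, down to -0.61 for DNAJA1, and at 48 h they lie between -0.21 and 0.21.

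The genes of the set were compared with each other over the 18 arrays, which share treatment, time and replicate number. Pearson's r over the 36 pairs had a median of 0.606 and ranged between -0.228 and 0.964. HSP90AA1 and HSPE1 had the highest, 0.964, and each was the closest of all tested genes to the other. Genes outside the set came near this, TOMM5 for HSP90AA1 (0.951) and COX16 for HSPE1 (0.959). DNAJA1 and DNAJB1 had 0.906. HSPH1 was closest to NDUFAF8 (0.961), HSPA4 to EIF2S1 (0.951), HSP90AB1 to ABCE1 (0.897), HSPD1 to UTP3 (0.891) and HSF1 to TRMT61A (0.815). HSF1 had its highest r within the set with DNAJB1, 0.334. Over the 9 CsA minus control pair differences the median r was 0.54, and that of HSP90AA1 with HSPE1 was 0.939. Over these differences HSPE1 was closest to CCND1 (0.981), and HSP90AA1 had rank 3 among the tested genes closest to HSPE1. No median r over pairs of other tested genes was computed. Time took 76.9% of the sum of squares of HSP90AA1, 76.6% of that of HSPE1 and 66.7% of that of HSPH1, against 8.72% of that of HSF1. Treatment took 13.1% or less of that of any of the 9 genes, and the interaction of treatment and time 21.3% of that of HSPD1, 15.1% of that of DNAJA1, 14.5% of that of HSF1, 14.4% of that of DNAJB1 and 8.75% or less of that of the others.

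**Figure D4:**
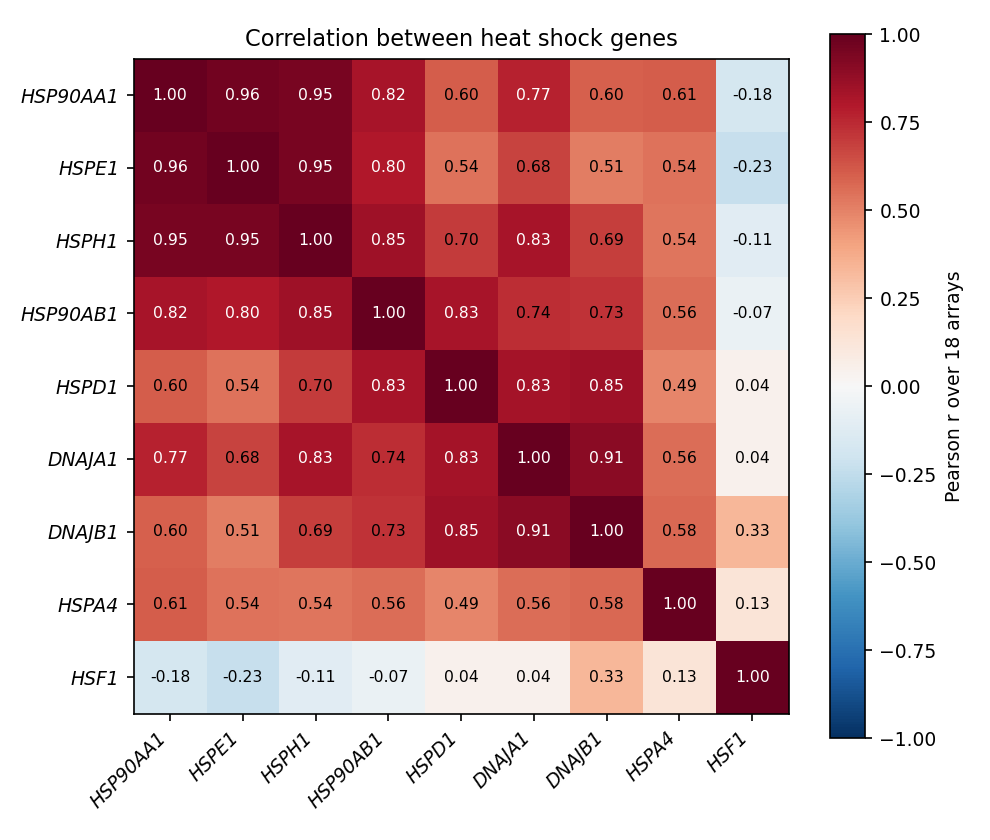
Pearson's r between heat shock genes over 18 arrays, in colour and in figures. HSP90AA1, HSPE1 and HSPH1 have 0.947 or more with each other, and DNAJA1 and DNAJB1 have 0.91. These do not stand apart from the rest. HSPD1 has 0.83 with DNAJA1 and 0.85 with DNAJB1, and HSP90AB1 has 0.80 to 0.85 with HSP90AA1, HSPE1 and HSPH1. The highest value of HSF1 with any other gene of the set is 0.33.

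Genes that work with these chaperones were grouped in 8 lists, chosen with earlier results of these data known. NUDC, TOMM34, VBP1, PFDN1, CLPB, HSPA2, HSPA12A, HSPA14, DNAJC12 and HSBP1 are named because of their values. None of their genes passed limma's test for CsA at 24 h, where no gene of all 10717 did. The 16 tested HSP90 cochaperones, which load clients onto HSP90 or pace its cycle, had a median CsA difference of -0.17 at 24 h with 13 negative, and of 0.04 at 48 h with 7 negative. Of all tested genes 52.0% were negative at 24 h and 49.8% at 48 h. PIH1D1, a client adaptor, differed by -0.34 ± 0.16 at 24 h, and PPID, the cyclophilin among them, by 0.13 ± 0.10 at 24 h and 0.29 ± 0.10 at 48 h (adjusted p = 0.999 and 0.171). FKBP4 and FKBP5, immunophilin cochaperones of steroid receptors, differed by -0.35 ± 0.39 and -0.18 ± 0.44 at 24 h. Between 48 and 24 h 1 of the 16 was called lower and 1 higher in CsA-treated cells, and 3 were called lower in control cells, with medians of -0.24 and -0.38. Of all tested genes 12.3% were called lower and 12.9% higher in CsA-treated cells, and 7.16% lower in control cells. With the replicate block 2 were called lower and 1 higher in CsA-treated cells (20.5% and 21.3% of all tested genes) and 7 lower and 1 higher in control cells (16.0% and 16.6%). PPP5C, a phosphatase of the HSP90 cycle, fell in both, by 0.52 ± 0.15 in CsA-treated cells and by 0.66 ± 0.15 in control cells (adjusted p = 0.0178 and 0.0102). The other 2 in control cells were NUDC and TOMM34. CDC37L1, a relative of the kinase cochaperone CDC37, rose by 0.61 ± 0.15 in CsA-treated cells (adjusted p = 0.00754).

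The cytosolic TRiC chaperonin, which folds actin and tubulin, and its feeder prefoldin had 12 tested subunits. Their median CsA difference was -0.08 at 24 h and -0.03 at 48 h. Between 48 and 24 h the median was -0.26 in CsA-treated cells with VBP1 called lower, and -0.31 in control cells with CCT3 and PFDN1 called lower, where the shares of all tested genes called lower were 12.3% and 7.16%. CCT3 fell by 0.62 ± 0.19 in control cells (limma adjusted p = 0.045), and differed by -0.40 ± 0.19 in CsA-treated cells (0.15, with the block 0.048). With the replicate block 5 were called lower in CsA-treated cells (20.5% of all tested genes) and 7 in control cells (16.0%), among them CCT3, CCT5 and CCT7 in both.

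Among the 16 other mitochondrial chaperones and proteases tested, between 48 and 24 h 7 were called higher and 1 lower in CsA-treated cells (median 0.30), and 3 higher and 1 lower in control cells (median 0.22). Of all tested genes 12.9% were called higher in CsA-treated cells and 7.32% in control cells. With the replicate block 9 were called higher and 2 lower in CsA-treated cells, and 7 higher and 2 lower in control cells, where the shares called higher were 21.3% and 16.6%. YME1L1, a protease of the inner membrane, rose by 0.80 ± 0.12 in CsA-treated cells and by 0.50 ± 0.12 in control cells (limma adjusted p = 0.000386 and 0.0144). TRAP1, the mitochondrial HSP90, fell by 0.36 ± 0.10 in CsA-treated cells (0.0195) and differed by -0.29 ± 0.10 in control cells (0.0717, with the block 0.0236), where CLPB, a disaggregase, was the gene called lower. For CsA against control 9 of the 16 were positive at 24 h and 11 at 48 h, where 52.0% and 49.8% of all tested genes were negative. At 48 h 0 passed limma's test, while 4 had an unadjusted p below 0.05 (16.0% of all tested genes). With the replicate block HSPA9 (0.66, adjusted p = 0.0233) and YME1L1 (0.42, 0.0156) were higher and TRAP1 was lower (-0.32, 0.0388) in CsA-treated cells at 48 h. Without the block their adjusted p values were 0.0897, 0.103 and 0.147.

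Of the 6 other HSP70 genes tested, HSPA13 and HYOU1, which lie in the endoplasmic reticulum, rose between 24 and 48 h, HYOU1 by 2.97 ± 0.37 in CsA-treated cells and by 2.56 ± 0.37 in control cells (limma adjusted p = 0.00018 and 0.000999). HSPA14, a cytosolic and ribosome-associated HSP70, fell by 0.93 ± 0.21 in CsA-treated cells and by 0.84 ± 0.21 in control cells (0.0058 and 0.0198), the 1 of 6 that was called lower without the block. Of all tested genes 12.3% were called lower in CsA-treated cells and 7.16% in control cells. With the replicate block 4 of 6 were called lower in CsA-treated cells (20.5% of all tested genes) and 2 of 6 in control cells (16.0%). These included HSPA2 in both and HSPA4L and HSPA12A in CsA-treated cells. HSPA4L, the cytosolic relative of HSPA4, differed by -0.29 ± 0.12 and -0.24 ± 0.12 (0.0902 and 0.195, with the block 0.0497 and 0.112). For CsA at 48 h, HSPA4L differed by -0.41 ± 0.12 (adjusted p = 0.115, with the block 0.0359). Of 11 small heat shock proteins 4 were tested, and HSPB1, the most widely expressed, differed by -0.11 ± 0.14 at 24 h and -0.24 ± 0.14 at 48 h.

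Among 19 other cytosolic J-proteins the median CsA difference was 0.04 at 24 h and 0.20 at 48 h. DNAJB2, a J-protein that sorts clients to the proteasome, was 0.82 ± 0.17 higher at 48 h (limma adjusted p = 0.0543, with the block 0.0125). DNAJC9, a histone cochaperone, differed by -0.45 ± 0.19 (0.259, with the block 0.0487) and fell between 24 and 48 h in both treatments. DNAJC12, a cochaperone of aromatic amino acid hydroxylases, rose by 3.48 ± 0.65 in CsA-treated cells and by 3.57 ± 0.65 in control cells over that interval (0.00168 and 0.00363). The 12 cochaperones and exchange factors of HSP70 had medians of -0.06 at 24 h and 0.14 at 48 h. BAG3, an exchange factor induced by HSF1, differed by -0.28 ± 0.15 at 24 h and 0.22 ± 0.15 at 48 h. SIL1, the exchange factor of the endoplasmic reticulum, differed by 1.04 ± 0.25 at 48 h (0.0693, with the block 0.0143). The 9 tested heat shock factors and regulators had medians of -0.05 and -0.14. Of these, HSBP1, a small protein that binds HSF1 and restrains it, fell between 24 and 48 h by 0.79 ± 0.18 in CsA-treated cells and by 0.71 ± 0.18 in control cells (0.00651 and 0.0216). Its relative HSBP1L1 rose by 0.54 ± 0.13 and 0.91 ± 0.13 (0.00629 and 0.000699).

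**Figure D5:**
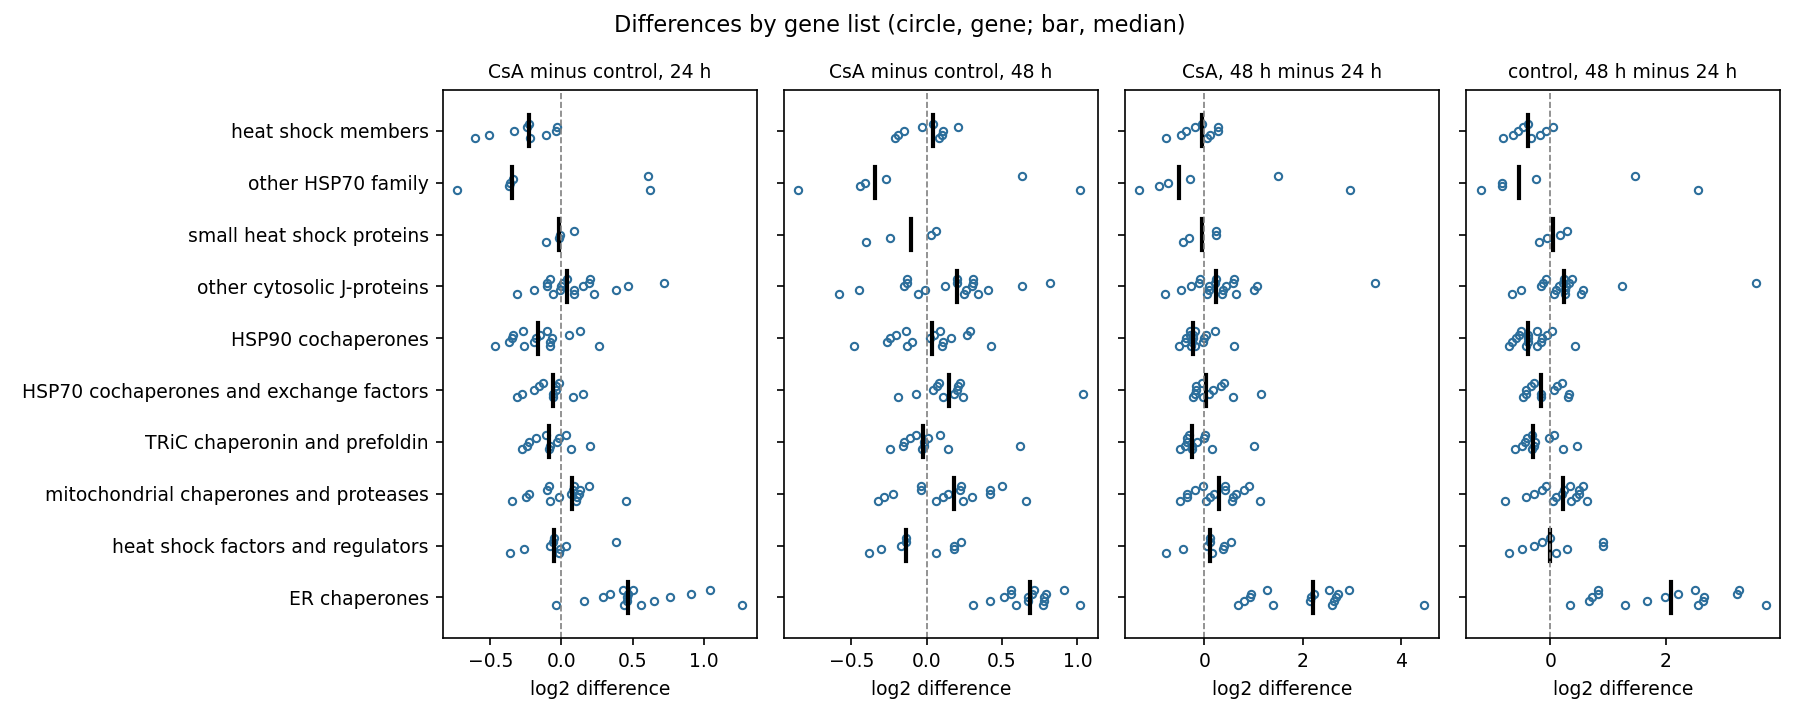
Log2 differences of each gene (circles) by list, with the list median (bar), for CsA minus control at 24 and 48 h and for 48 h minus 24 h in CsA-treated and control cells. Each panel has its own horizontal scale. The heat shock genes have medians of -0.23, 0.04, -0.05 and -0.38, and the ER chaperones 0.47, 0.69, 2.21 and 2.10.

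Of 16 tested chaperones of the endoplasmic reticulum, 15 were called higher between 24 and 48 h in each treatment, where 12.9% of all tested genes were called higher in CsA-treated cells and 7.32% in control cells. For CsA against control 15 were positive at 24 h and 16 at 48 h, where 52.0% and 49.8% of all tested genes were negative. For CsA 0 of the 16 passed limma's test at 24 h and 0 at 48 h. Unadjusted p values were below 0.05 for 8 at 24 h (3.79% of all tested genes) and 11 at 48 h (16.0%). With the block 7 were called higher at 48 h (4.8% of all tested genes). HSPA5 (BiP), the HSP70 of that compartment, rose by 2.15 ± 0.21 in CsA-treated cells and by 2.64 ± 0.21 in control cells (limma adjusted p = 3.7e-05 and 2.34e-05). HSP90B1 (GRP94), the paralogue of the cytosolic HSP90s, rose by 1.40 ± 0.31 and 1.29 ± 0.31 (0.00487 and 0.0161). Over both treatments the change of HSP90AA1 minus that of HSP90B1 between 24 and 48 h was -1.82 (exact permutation test, p = 0.005, adjusted over 8 tests 0.01), and -1.34 without replicate 3. For CsA minus control over the 3 times HSP90AA1 averaged -0.16 and HSP90B1 0.54. The difference was -0.70 (exact permutation over 8000 relabelings, p = 0.0135, adjusted 0.018), negative in 9 of 9 pairs, and -0.72 without replicate 3. Exact sign changes, which take the 9 pairs as independent, gave p = 0.00391 (adjusted 0.0312).

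Markers of cycling cells were also lower at 48 h. All 8 were called lower between 24 and 48 h in CsA-treated cells and 6 of 8 in control cells, with medians of -1.91 and -1.14, where the shares of all tested genes called lower were 12.3% and 7.16%. With the block all 8 were called lower in both CsA-treated cells (20.5% of all tested genes) and control cells (16.0%). Their summed level lay between 12.3 and 13.59 on the log2 scale at 48 h in CsA-treated cells and between 13.69 and 14.42 in control cells. At 24 h the sums lay between 14.62 and 15.06 in CsA-treated cells and between 15.13 and 15.18 in control cells. The summed level of the 2 proximal tubule markers measured lay between 10.56 and 11.47 at 48 h in CsA-treated cells and between 11.32 and 12.66 in control cells, against 12.75 to 13.22 and 12.64 to 13.04 at 24 h. Sums are of unlogged values, and this one mostly followed CDH6. Its mean went from 12.68 at 24 h to 10.13 at 48 h in CsA-treated cells and from 12.49 to 11.35 in control cells. The mean of PAX8 went from 10.65 to 10.06 and from 10.64 to 10.23. The 4 markers of other cell types summed to between 8.94 and 11.21 in CsA-treated cells and between 9.55 and 11.85 in control cells at 48 h, against 10.46 to 11.1 and 10.69 to 10.95 at 24 h. That sum mostly followed DCN, which lay between 8.24 and 11.76 over all arrays. COL1A1 reached at most 8.39, COL3A1 5.67 and PODXL 4.94. The 3-prime minus 5-prime signal of ACTB, a sign of RNA quality, averaged between 0.80 and 0.95 over the 6 groups. The part of these in the changes of the heat shock genes was not tested. In bulk RNA, fewer cells of a kind and less RNA per cell cannot be told apart.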

How the data were processed

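RNA of 18 HK-2 cultures was measured on Affymetrix arrays, and the labels' treatment and time set the groups. Per the submitters' processing notes the deposited table was made with GCRMA. No label states the log base, so the deposited values were read as log2 because of their range (0.84 to 15.98). GCRMA holds dim probe sets near a common low value, which compresses their differences. Of 54675 probe sets, 41097 had 1 symbol in the platform annotation, 1801 had several and 11777 were unnamed here. Of the probe sets with 1 symbol, those reaching 4 in the highest of their group means were kept, and per gene the one with the highest mean over all arrays, which left 10717 genes.

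The fit used limma 3.58.1 in R 4.3.3 (lmFit, eBayes) on all 18 arrays with a term per group, two-sided, with Benjamini-Hochberg adjustment over all tested genes at 0.05. The ± after a log2 difference is that fit's standard error, and intervals are its 95% confidence intervals. Partner genes were compared by exact permutation of arrays within strata and, added later, by exact sign changes over same-numbered pairs. The sign changes take pairs that share a replicate number as independent. Python 3.11.15 was used for tables and figures. The members and lists were chosen with earlier results of these data known. Named are all members, per list the 2 tested genes with the smallest unadjusted p for CsA at 24 h and at 48 h, and PPID, FKBP4, FKBP5, HSPA9, HSPA5 and HSP90B1, besides genes said to be named for their values. Promoter windows are RefSeq's. The labels do not say that replicate numbers pair samples, but same-numbered arrays deviated together (lowest correlation of deviations 0.277, between 0.546 and 0.942 for CsA and control of one time, and 18 of 18 arrays closest to one of their own number), so the replicate block is given beside the printed counts and calls that it changed. The labels call the replicates biological.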

Additional observations from a re-analysis of the deposited data

Results flagged for a closer look

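In 3 genes all 3 replicate pairs of CsA minus control were positive at 48 h and negative at both earlier times. Of all tested genes 25.7% were higher in all 3 pairs at 48 h. Lower in all 3 pairs were 20.6% at 12 h and 23.3% at 24 h. The share of all tested genes with the whole pattern was not counted. For HSPA4 the pairs were 0.21, 0.34 and 0.08 at 48 h, against -0.25, -0.06 and -0.41 at 24 h. For DNAJB1 they were 0.02, 0.17 and 0.11 at 48 h, against -0.37, -0.54 and -0.62 at 24 h. For HSPD1 they were 0.12, 0.07 and 0.05 at 48 h, against -0.08, -0.04 and -0.22 at 24 h. The CsA effect at 48 h minus that at 24 h was 0.45 ± 0.30 for HSPA4, 0.61 ± 0.34 for DNAJB1 and 0.19 ± 0.12 for HSPD1 in limma's fit, and none passed the test (adjusted p = 0.955, 0.92 and 0.938). The effect at 48 h minus that at 12 h was 0.32 ± 0.30 for HSPA4, 0.32 ± 0.34 for DNAJB1 and 0.16 ± 0.12 for HSPD1 (adjusted p = 1.0 for each). With the replicate number as a block HSPA4 gave an adjusted p of 0.251 for 48 h against 24 h and 0.383 for 48 h against 12 h.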

How the results depend on the processing

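Depth has no counterpart here, and 3 arrays per group limit the precision. The replicate block (over all arrays and, for CsA against control, over those of each time alone), no filter on level, a filter at 6, renewed quantile normalization, median centring, a floor at 4, the mean of all probe sets, eBayes with trend and robust, and 19 fits that leave out 1 array or replicate 3 were tried. The replicate block called 2 genes between 48 and 24 h in both CsA-treated and control cells, where 1 was called without it, and changed no other count of the 9 genes called at an adjusted p by over 1.5 times. It moved counts at unadjusted p values and counts of the companion lists by more, as given beside them. Without the filter on level that count was 0 in both, more genes being tested. Renewed quantile normalization called 2 in control cells, gave HSF1 a CsA difference of 0.000821 at 48 h, and turned HSPD1 to 0.02 (control, 48 against 24 h) and 0.07 (CsA, 48 against 12 h). The mean of all probe sets turned HSF1 to 0.32 (CsA against control, 48 h), to -0.15 and -0.03 (control, 48 against 24 h and 12 h) and to 0.18 (CsA, 48 against 12 h), and moved the members' median for CsA 24 against 12 h to -0.47. Median centring moved the median CsA difference at 12 h to -0.08. The cause of these was not tested. With 1 array or replicate 3 left out, the count called ranged between 0 and 1 (control) and 0 and 2 (CsA) for 48 against 24 h, and between 2 and 6 for control 48 against 12 h. The members' median ranged between -0.17 and -0.04 (12 h), -0.38 and -0.06 (24 h) and -0.20 and -0.09 (mean of times) for CsA against control, -0.34 and -0.11 (control) and -0.55 and -0.19 (CsA) for 24 against 12 h, and -0.31 and -0.02 for the CsA effect at 24 h minus that at 12 h. Signs turned in these fits for CsA against control at 12 h in HSPA4 (-0.26 to 0.04) and HSPE1 (-0.13 to 0.04), at 24 h in HSP90AB1 (-0.09 to 0.11), and at 48 h in HSP90AB1 (-0.000773 to 0.24), HSPH1 (-0.39 to 0.06), DNAJA1 (-0.11 to 0.16), DNAJB1 (-0.07 to 0.24), HSPE1 (-0.37 to 0.08) and HSF1 (-0.12 to 0.04). They also turned for HSF1 in control cells at 48 against 24 h (-0.03 to 0.13), for HSP90AB1 in CsA-treated cells at 48 against 24 h (-0.16 to 0.12), and in CsA-treated cells at 48 against 12 h for DNAJB1 (-0.30 to 0.19), HSPD1 (-0.07 to 0.03) and HSF1 (-0.11 to 0.12). None of the values whose sign turned was called.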
